A study of Homo sapiens with 12 samples.

Results

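The Huh-7.5 line that expresses APEX-G3BP1 was compared with the lines that express APEX-NES and APEX-NLS. Huh-7.5 is an established line derived from a human hepatocellular carcinoma, and APEX is an engineered peroxidase used to label molecules near the protein that carries it. Of the 12 libraries, 4 came from the APEX-G3BP1 line and 8 from the other lines, 4 of each. Every line was sampled after mock treatment and after 45 minutes in 0.5 mM sodium arsenite, with 2 libraries per line and treatment. All 3 lines carry an APEX construct, so no library comes from unmodified Huh-7.5 cells. The labels do not give the promoter of the constructs, nor whether a line is 1 clone. Each construct is present in 1 line only, so an effect of the G3BP1 construct and any other difference of that line cannot be told apart. Nothing in the labels says that replicates were separate cultures, and p-values therefore measure the spread between these libraries, which may be technical. All 61255 rows of the count table belonged to the comparison and 13108 held enough counts to be tested. A row was named only where its difference had 1 sign against NES mock, NLS mock, NES arsenite and NLS arsenite, unless said otherwise.

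G3BP1 is an RNA-binding protein that forms a dimer, binds untranslated messenger RNA and partners such as CAPRIN1 and USP10, and nucleates stress granules, the cytoplasmic condensates that gather stalled initiation complexes. Arsenite activates the kinase HRI, which phosphorylates the initiation factor eIF2-alpha, slows translation and makes these granules form. Phosphorylated eIF2-alpha also turns on the integrated stress response, in which the transcription factor ATF4 raises genes of amino acid transport, serine and one-carbon metabolism and transfer RNA charging. In hepatocyte-derived cells, other regulated programmes include apolipoprotein and plasma protein genes, driven by factors such as CEBPA, and sterol synthesis, driven by SREBF2.

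Row names in this table need care before any value is read. TALAM1, annotated on the other strand from the abundant nuclear RNA MALAT1, had 44233 to 81932 counts per library, against 16 to 37 for MALAT1. BEST1, which faces the ferritin gene FTH1, had 11497 to 18070 counts, against 11 to 34 for FTH1. In such pairs, chosen after their values were seen, the counts stand on the row opposite to the abundant gene; the kit keeps the strand, and how reads were assigned by strand is not given in the sources used here. Below, a row is said to face a gene where its annotated exons overlap exons of that gene on the other strand in GENCODE 29 (GRCh38). Each gene list is therefore counted both by the rows of its own genes and by the rows facing them, and which gene made the RNA was not tested. Library totals were 1090308 to 1414600 counts in the G3BP1 line, 1170783 to 1435934 in NES and 1254922 to 1461067 in NLS. Levels are in CPM, counts relative to TMM-scaled library totals, where 3 counts in a library correspond to 2.08 to 2.88 CPM. Among the libraries, NES arsenite 2 and NLS arsenite 2 stood apart in a few rows, given with the arsenite results.

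The G3BP1 line differed from the mean of the other lines in 3760 of 13108 rows by edgeR's quasi-likelihood test at an adjusted p under 0.05, which is 28.7% of rows tested. Of these, 2008 rows were higher (15.3%) and 1752 lower (13.4%) in the G3BP1 line. With 1 sign in all 4 comparisons there were 3433 called rows (26.2%). The sign was shared by all 4 comparisons with the other groups in 1850 of the higher rows (14.1% of rows tested) and 1583 of the lower rows (12.1%). Most differences were small, with 268 higher rows (2.04%) and 426 lower rows (3.25%) changed at least 2-fold. In 714 rows (5.45%) all 4 G3BP1 libraries lay above all 8 others, and in 481 rows (3.67%) they lay below. Called, with 1 sign and without overlap were 701 rows on the higher side (5.35%) and 464 on the lower (3.54%), and 678 (5.17%) and 426 (3.25%) of them were abundant enough to be named by size. The split between directions depended on scaling. With total counts in place of TMM, 1389 rows were higher and 2650 lower, since the median log2 fold change of all rows moved from -0.01 to -0.12. On data simulated for this comparison, 37% of 100 rows changed 1.5-fold and 78% of 100 rows changed 2-fold were recovered, with 5 false calls. Only these rows were changed, equally up and down, and NES and NLS were simulated alike. In the data 28.7% of rows were called, so these rates may not carry over.

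Abundant rows were called higher more often than scarce ones. Below a mean of 10 CPM, 5.34% of rows were higher and 8.11% lower. From 10 to 30 CPM they were 10.1% and 12.9%. The median level of the list genes' own rows lay in this range, except for endothelial and mitochondrial genes. Between 100 and 300 CPM the shares were 34.5% and 18.6%, and above 300 CPM they were 56.9% and 15%. Rows facing exons of another gene followed the same course, with 33.8% higher between 100 and 300 CPM and 56.8% above. These shares are the background against which the counts of each gene list below are to be read.

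**Figure D1:**
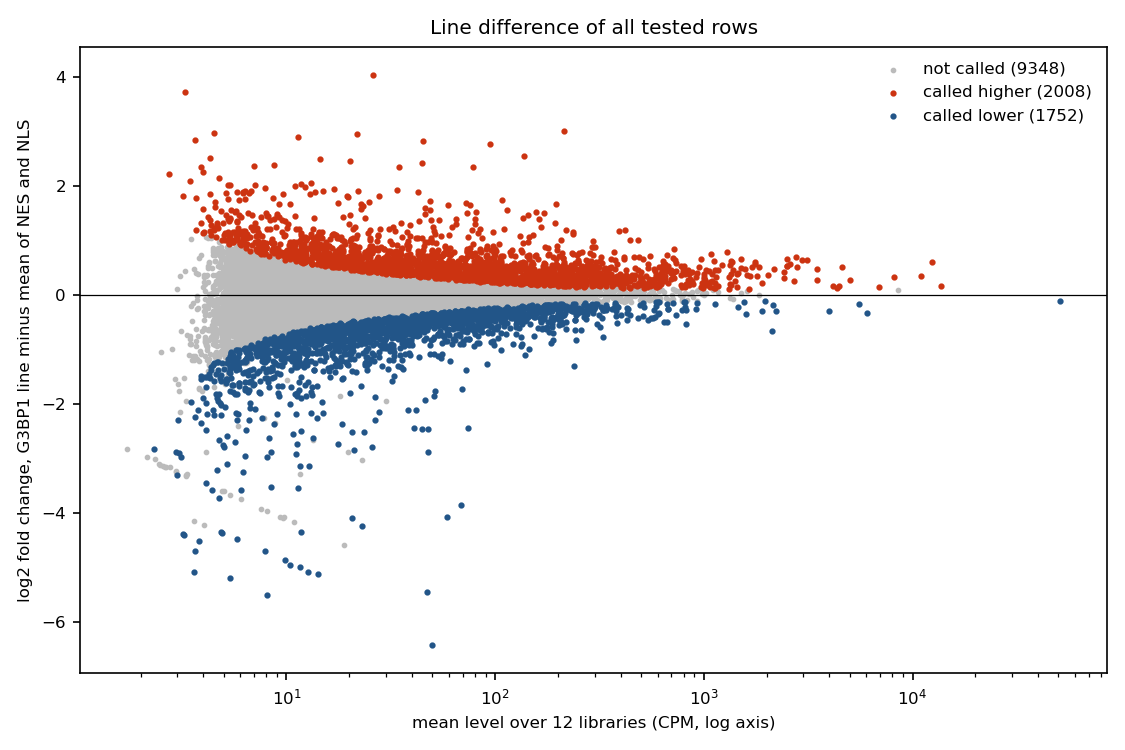
Each point is 1 of the 13108 tested rows, with its mean level over the 12 libraries in CPM (log axis) and its log2 fold change between the G3BP1 line and the mean of NES and NLS; red points are the 2008 rows called higher and blue points the 1752 called lower. Points on the right side lie mostly above 0, and the 22 blue points below -4 are rows with at most 3 counts in every G3BP1 library.

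Against each other line alone, the G3BP1 line differed in 2540 rows from NES (19.4%), with 1362 higher (10.4%) and 1178 lower (8.99%), and in 4044 rows from NLS (30.9%), with 2094 higher (16%) and 1950 lower (14.9%). For scale, NLS differed from NES in 1435 rows (10.9%), with 632 higher (4.82%) and 803 lower (6.13%). These comparisons share libraries and are not independent. In mock libraries alone the G3BP1 line differed from the mean of the others in 2473 rows (18.9%), 1388 higher (10.6%) and 1085 lower (8.28%). In arsenite libraries alone it differed in 2446 rows (18.7%), 1454 higher (11.1%) and 992 lower (7.57%). DESeq2 called 2624 rows in the pooled comparison, 2608 of them among the 3760.

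The row of G3BP1 itself gave no check of the labels. It held 19, 21, 12 and 11 counts in the G3BP1 libraries (mock 1, mock 2, arsenite 1, arsenite 2, the order used for every line below), 7, 1, 6 and 9 in NES and 21, 17, 11 and 23 in NLS. The G3BP1 and NLS libraries overlapped fully, and only NES was lower than most of the others. Its log2 fold change against the mean of both lines was 0.84 (SE 0.274, adjusted p = 0.0138 by edgeR), but against NLS it was 0.05, and DESeq2 gave an adjusted p of 0.0744. The row of its paralog G3BP2 held 1 to 4 counts and was not tested. The ATOX1 row, which faces G3BP1 over 130 bases, held 8 to 22 counts.

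The largest difference upward was in a row facing KRT23, a type I keratin. ENSG00000234477 (chr17:40921430-40975926, plus strand, 186 of its 815 exon bases facing KRT23) stood at 65.3, 56.0, 78.9 and 72.9 CPM in the G3BP1 line. NES libraries had 5.16, 6.2, 9.30 and 9.69 CPM, and NLS libraries 0, 1.53, 5.31 and 2.08 CPM. All G3BP1 libraries lay far above the rest, 4.02 higher on the log2 scale (SE 0.195, adjusted p = 3.75e-36 by edgeR). The KRT23 row itself had at most 1 count in any library.

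A row lying wholly opposite LYZ, the gene of the antibacterial enzyme lysozyme, showed the smallest p of the table. ENSG00000257764 (chr12:69353493-69354225, minus strand, all 599 exon bases facing LYZ) had 440.1, 503, 558 and 549.9 CPM in the G3BP1 line. It had 63.3, 55.0, 58.0 and 57.3 CPM in NES and 48.1, 78.6, 69.7 and 83.8 CPM in NLS. The other lines overlapped each other, and the G3BP1 line was higher by 3.0 on the log2 scale (SE 0.0692, adjusted p = 2.97e-66 by edgeR).

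The next smallest p-values were in SRFBP1 and PRKG1-AS1. PRKG1-AS1 faces DKK1, a secreted Wnt inhibitor, over 212 bases and PRKG1, a cGMP-dependent kinase, over 169 bases (chr10:52230742-52314507, minus strand). Its level was 210.4, 234, 198 and 236 CPM in the G3BP1 line, 27.3, 32.5, 27.9 and 35.2 CPM in NES and 39.6, 29.8, 30.3 and 35.3 CPM in NLS. The NES and NLS ranges overlapped and the G3BP1 range lay apart, 2.77 higher on the log2 scale (SE 0.0935, adjusted p = 2.85e-50 by edgeR). The PRKG1 row, within 100 kb, was called higher too, at 2.02. SRFBP1 (chr5:121961961-122075570, plus strand) faces LOX, the lysyl oxidase that crosslinks collagen and elastin, over 138 bases. The G3BP1 libraries had 282, 290.3, 289 and 355 CPM in this row, against 50.8, 83.7, 61.5 and 65.2 CPM in NES and 31.1, 44.3, 45.5 and 47.1 CPM in NLS. The difference was 2.54 on the log2 scale (SE 0.0821, adjusted p = 8.19e-52 by edgeR), and it was present against each line.

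The TIMP3 row, named for an inhibitor of matrix metalloproteinases, faces no exon and lies inside the body of SYN3, a synapsin gene on the other strand (chr22:32801701-32863043). It had 54.8, 61.5, 46.3 and 44.4 CPM in the G3BP1 line, against 2.86 to 8.84 CPM in NES and 1.39 to 10.6 CPM in NLS. The difference was 2.95 (SE 0.194, adjusted p = 3.97e-26 by edgeR), while the SYN3 row was at -0.03. CASC11, a long non-coding RNA, rose by 2.82 (SE 0.137, adjusted p = 4.65e-36 by edgeR), from 9.85 to 24.7 CPM in the other lines to 89.5 to 121 CPM. ENSG00000279160 faces HOXD1, a homeobox gene of the HOXD cluster, over 989 bases and rose by 2.45 (SE 0.186, adjusted p = 4.27e-22 by edgeR). Within 100 kb of it, 4 of 5 tested rows were also called higher, namely HOXD-AS2 (1.43), HOXD3 (1.44), HAGLR (1.71) and HAGLROS (1.81). Of all tested rows, 15.3% were called higher. The remaining rows among the 12 largest were ATP10B (2.96), ENSG00000225028 (2.88), C1orf131 (2.49), ENSG00000286962 (2.42) and TRIM67-AS1 (2.38). C1orf131 and TRIM67-AS1 lie within 100 kb of each other.

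**Figure D2:**
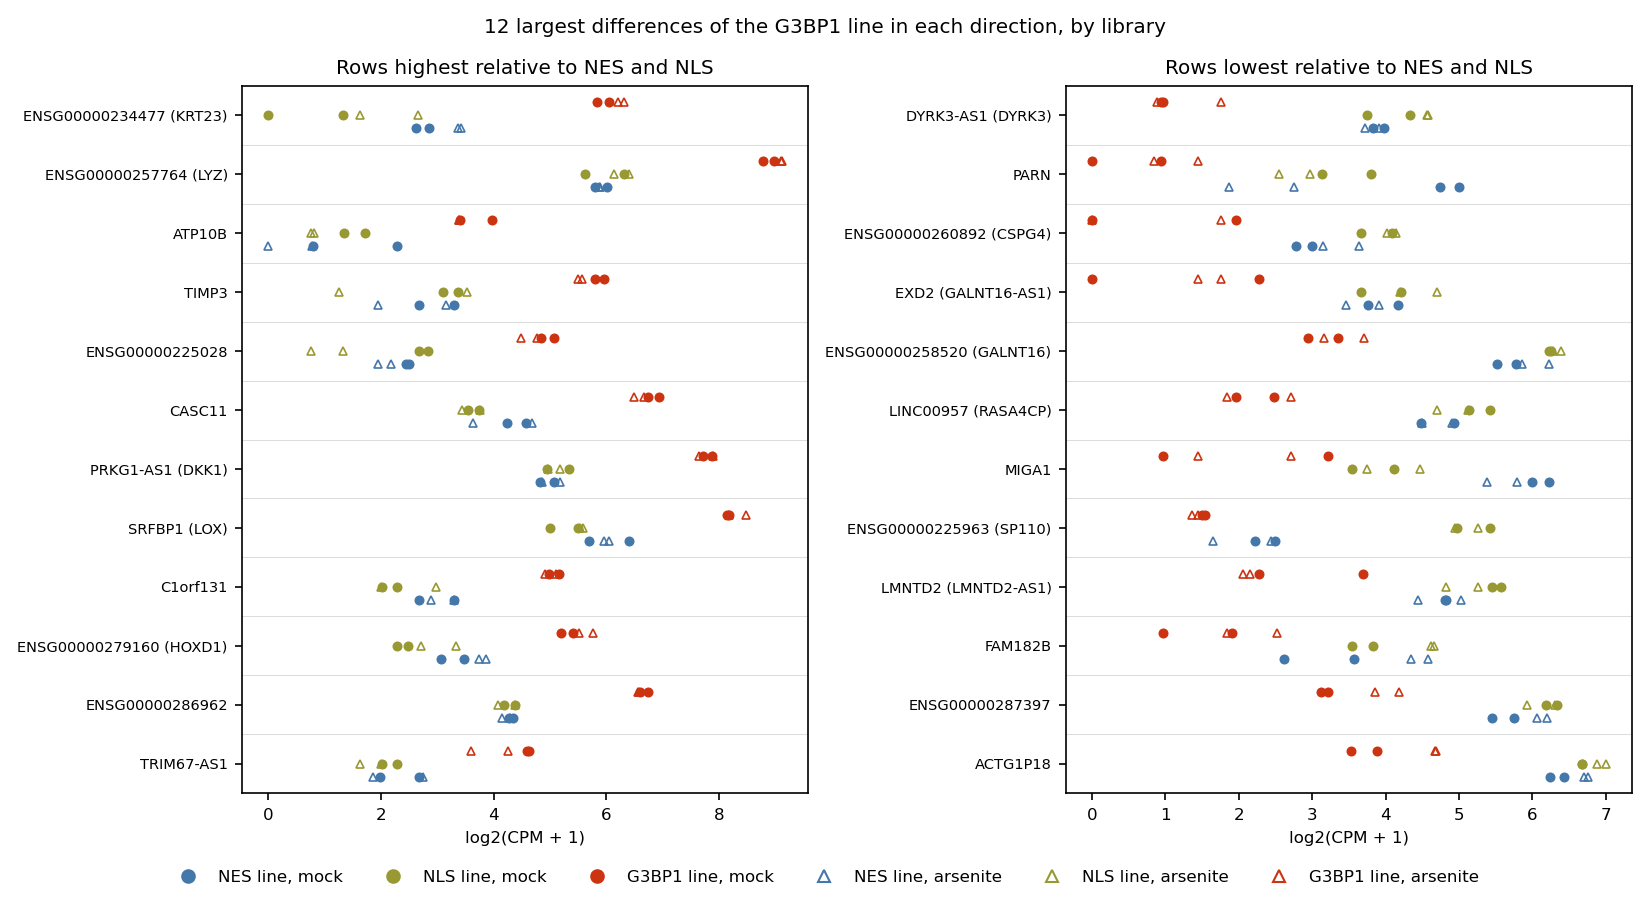
Levels of the 12 rows with the largest difference in each direction are drawn as log2(CPM + 1), 1 point per library, filled circles for mock and open triangles for arsenite; a gene facing the row is in brackets. By the choice of rows the red G3BP1 points do not overlap the others, and in the ENSG00000225963 row the gap to NES is narrow while the gap to NLS is wide.

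Downward, the largest differences were mostly in scarce rows. DYRK3-AS1 faces DYRK3, a kinase known to dissolve stress granules, over 23 bases, and had 1, 1, 1 and 3 counts in the G3BP1 line. It had 20, 17, 17 and 16 counts in NES and 16, 25, 30 and 33 in NLS, which makes it at least 6.2-fold lower in the G3BP1 line with 3 counts per library as the floor. On the same basis ENSG00000260892, lying wholly opposite the proteoglycan gene CSPG4, was at least 4.34-fold lower. The PARN row, named for a poly(A)-specific ribonuclease, was at least 4.61-fold lower than the mean of the others, but unevenly. It had 0, 1, 2 and 1 counts in the G3BP1 line, 35, 40, 8 and 3 in NES and 10, 17, 9 and 7 in NLS. Its fitted difference was -4.92 in mock and -1.94 in arsenite. A better counted case was ENSG00000258520, facing GALNT16, a glycosyltransferase of the GalNAc family (chr14:69239166-69260567, minus strand). It had 6.73, 9.19, 12 and 7.92 CPM in the G3BP1 line, 53.8, 44.9, 57.2 and 74.0 CPM in NES and 73.8, 75.6, 76.6 and 82.4 CPM in NLS. No library of another line came near the G3BP1 range, and the difference was -2.88 (SE 0.184, adjusted p = 4.67e-27 by edgeR). The EXD2 row, which overlaps that locus on the other strand, fell with it by 2.91 on the log2 scale.

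Other rows in this set were uneven between the comparison lines. ENSG00000225963, facing SP110, an interferon-induced nuclear body protein, had 2 counts in each G3BP1 library, 3 to 6 in NES and 39 to 55 in NLS. It was at least 7.28-fold lower than the mean of the others with 3 counts per library as the floor, but against NES alone edgeR's adjusted p was 0.213. MIGA1, named for a mitochondrial fusion regulator, had 0.961 to 8.27 CPM in the G3BP1 line, 10.7 to 21.2 CPM in NLS and 40.5 to 73.6 CPM in NES. LINC00957 fell by 2.85, and 6 of the 8 tested rows within 100 kb of it were called lower too. All 8 lay between -0.22 and -0.92, and 13.4% of all tested rows were called lower. Most other rows named by size had at most 1 tested neighbour called in the same direction. ACTG1P18, an actin pseudogene inside the body of GRIK2 on the other strand, fell by 2.44, from 74.4 to 127 CPM to 10.6 to 24.9 CPM. Whether its reads belong to its parent gene or to another was not tested. The rest were LMNTD2 (-2.51), FAM182B (-2.50) and ENSG00000287397 (-2.45).

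Among rows above a mean of 100 CPM, 331 higher (2.53% of rows tested) and 120 lower (0.915%) passed every condition for naming. Besides the LYZ-facing and LOX-facing rows, the higher ones with the smallest p included ENSG00000267257, which faces ALPK2, an alpha kinase, over 2225 bases. It had 384, 378, 337 and 345 CPM in the G3BP1 line and 98.7 to 127 CPM in all 8 others, 1.67 higher on the log2 scale (SE 0.0648, adjusted p = 1.77e-44 by edgeR). DNAJC16, a DnaJ family row, was higher by 1.18. On the lower side, ENSG00000257715 faces LTA4H, which makes leukotriene B4, and had 102, 123, 139 and 114 CPM against 229 to 289 CPM in NES and 314 to 373 CPM in NLS. It stood at -1.31 on the log2 scale (SE 0.0729, adjusted p = 1.42e-31 by edgeR). ENSG00000269292, wholly opposite the calmodulin gene CALM3, had 1504, 1481, 1407 and 1714 CPM, below 2257 to 2568 CPM in the others, at -0.66 (SE 0.0428, adjusted p = 1.88e-26 by edgeR). LAMB1, a laminin chain, was lower by a log2 fold change of -0.83, STAG3, a meiotic cohesin subunit, by -0.76, and B9D1, which faces the kinase gene MAPK7, by -0.88.

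Rows facing genes of amino acid supply and the integrated stress response were higher in the G3BP1 line or not called, and none was called lower. Of 21 tested rows facing 15 genes of this list, 14 were called higher and 0 lower, with a median log2 fold change of 0.53 against -0.01 over all tested rows. The 14 rows face 11 genes, and 8 of the 14 had G3BP1 libraries entirely above the others. Over all tested rows, 701 of the 2008 called higher had 1 sign and no overlap. With total counts in place of TMM, 10 of the rows facing this list were higher and 0 lower. The rows' median level was 78.1 CPM, and between 30 and 100 CPM 19% of all rows were higher. Leaving out each library in turn gave 10 to 14 higher rows. Of 19 tested rows of the genes themselves, 6 were higher and 1 lower, with a median of 0.21. Their median level was 11.6 CPM, and between 10 and 30 CPM 10.1% of all rows were higher and 12.9% lower.

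Among carriers of amino acids, ENSG00000260466, facing SLC7A5, the light chain of the large neutral amino acid transporter, had 318, 338, 303 and 306 CPM in the G3BP1 line. NES had 197, 181, 149 and 176 CPM in it, and NLS 91.6, 102, 78.1 and 95.6 CPM. The 3 lines did not overlap each other, and the G3BP1 line was highest, by 1.32 on the log2 scale (SE 0.0657, adjusted p = 2.20e-35 by edgeR). SLC7A11-AS1, facing the cystine importer SLC7A11, had 136, 139.6, 146 and 128 CPM against 50.1 to 64.3 CPM in NES and 28.05 to 40.5 CPM in NLS, at 1.64 (SE 0.100, adjusted p = 1.64e-28 by edgeR). ENSG00000275719, facing the glutamine and neutral amino acid carrier SLC1A5, had 392, 412, 425 and 412 CPM against 231 to 323 CPM in NES and 159.6 to 211 CPM in NLS, at 0.87 (SE 0.0581, adjusted p = 7.64e-26 by edgeR).

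In mitochondrial one-carbon metabolism, ENSG00000264324 faces MTHFD2, the mitochondrial methylenetetrahydrofolate dehydrogenase (chr2:74211604-74363377, minus strand), and had 224, 225, 263 and 280.5 CPM in the G3BP1 line. It had 85.4, 99.9, 120.2 and 111 CPM in NES and 72.2, 60.3, 100.1 and 79.7 CPM in NLS, so that NES and NLS overlapped and the G3BP1 line stood apart at 1.46 (SE 0.0736, adjusted p = 4.63e-35 by edgeR). SLC4A5, which faces the same gene, was at 1.39. The rows facing SHMT2, which makes glycine from serine, were at 0.70 and 0.53, the second without 1 sign. NOPCHAP1, facing ALDH1L2, a mitochondrial folate enzyme, was at 1.31 from 11.6 CPM in the G3BP1 line. Rows facing the glycyl and tryptophanyl transfer RNA synthetases GARS1 and WARS1 were at 0.74 and 0.40. Rows facing VEGFA and DDIT3 were at 0.32 and 0.22, and the row facing the eIF2-alpha kinase EIF2AK3 at 0.25 without 1 sign. The other 7 rows, facing ATF5, VLDLR, EIF2AK1, EIF2S1, DDIT3 and EIF2AK3, were not called, at -0.24 to 0.55 with adjusted p-values of 0.169 to 0.842 by edgeR.

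**Figure D3:**
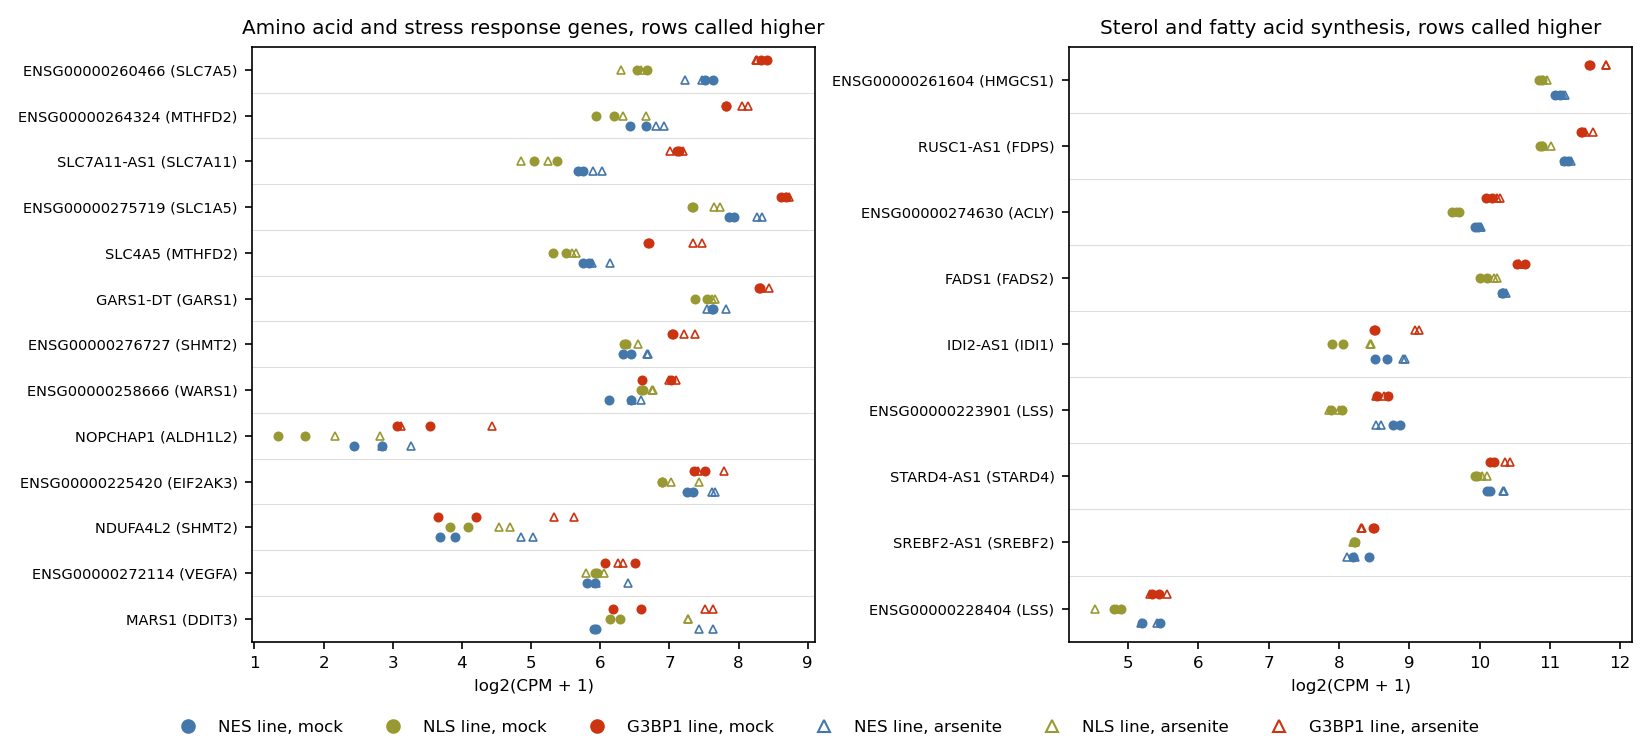
Rows called higher in the amino acid and stress response list (left, 13 of the 14) and in the sterol and fatty acid list (right, 9 of the 12) are drawn as log2(CPM + 1), 1 point per library, with the list gene each row faces in brackets. G3BP1 points lie rightmost without overlap in 7 of the 13 rows drawn on the left and in 4 of the 9 on the right.

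The promoters of MTHFD2 and SLC1A5, and of the sterol gene HMGCS1 described next, are shown because a row facing each was called higher. The genes were chosen after their values were seen. The CCAAT box bound by NF-Y is marked because all 3 promoters hold it, so its presence in them is no result. Each run is the 250 bases upstream of the start, written 5′ to 3′ on the gene's strand from RefSeq on GRCh38.p14, and capitals mark CCAAT on either strand. Positions are chr2:74198365-74198614 (plus strand), chr19:46788595-46788844 (minus strand) and chr5:43313413-43313662 (minus strand).
MTHFD2: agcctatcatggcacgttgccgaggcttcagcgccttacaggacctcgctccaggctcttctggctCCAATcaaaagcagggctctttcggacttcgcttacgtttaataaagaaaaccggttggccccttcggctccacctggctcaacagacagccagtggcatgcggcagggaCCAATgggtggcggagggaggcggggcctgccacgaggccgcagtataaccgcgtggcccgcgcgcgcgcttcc
SLC1A5: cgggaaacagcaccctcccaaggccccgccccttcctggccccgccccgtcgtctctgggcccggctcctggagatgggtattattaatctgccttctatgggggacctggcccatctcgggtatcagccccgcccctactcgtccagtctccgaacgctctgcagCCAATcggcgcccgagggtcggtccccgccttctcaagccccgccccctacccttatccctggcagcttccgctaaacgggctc
HMGCS1: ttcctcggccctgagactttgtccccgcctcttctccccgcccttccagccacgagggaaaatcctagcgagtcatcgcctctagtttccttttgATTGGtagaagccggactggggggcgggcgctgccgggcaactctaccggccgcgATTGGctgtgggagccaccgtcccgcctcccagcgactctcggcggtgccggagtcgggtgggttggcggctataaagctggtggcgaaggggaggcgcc
MTHFD2 held 2 matches, SLC1A5 1 and HMGCS1 2, and 33% of 27305 promoters of this length hold at least 1. The motif TGATGNAA, the composite site of ATF4 and CEBP factors, was in 7 of 37 promoters of the amino acid and stress response list (18.9%), against 3.19% of all promoters. It was in 0 of the 7 promoters that the table holds for genes facing a row called higher. TCACNCCAC, a sterol regulatory element, was in 1 of 8 promoters of sterol genes facing a row called higher (12.5%), that of SREBF2, which was also the only match among 34 promoters of the whole list (2.94%), and in 0.875% of all promoters. Both strands were searched, and these matches describe sequence only.

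Sterol and fatty acid synthesis showed smaller differences in the same direction. Of 15 tested rows facing 14 genes, 12 were called higher and 0 lower, with a median of 0.32, and 10 of the 12 had 1 sign. These rows were abundant, with a median level of 397 CPM, and above 300 CPM 56.9% of all rows were called higher. With total counts, 8 were higher and 0 lower. ENSG00000261604 faces HMGCS1, which makes HMG-CoA, and had 2999.9, 3056, 3568 and 3579 CPM in the G3BP1 line against 2159 to 2376 CPM in NES and 1838 to 1984 CPM in NLS. The lines did not overlap, and the difference was 0.66 (SE 0.0384, adjusted p = 5.20e-30 by edgeR). RUSC1-AS1, facing farnesyl diphosphate synthase FDPS, was at 0.42. Rows facing ACLY, which supplies cytosolic acetyl-CoA, and the desaturase gene FADS2 were at 0.38 and 0.33. The row facing the regulator SREBF2 was at 0.17. The own rows had a median level of 15.5 CPM, and between 10 and 30 CPM 10.1% of all rows were higher and 12.9% lower. Of 27 tested own rows, 6 were higher and 2 lower, with a median of 0.21. Among them FASN (0.97), SCD (0.97) and DHCR7 (0.80) were higher and FDPS (-0.95) lower.

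Of 10 tested rows facing hepatocyte genes, 7 were called higher and 2 lower, with a median of 0.56. Their median level was 349 CPM, and above 300 CPM 56.9% of all rows were higher and 15% lower. Of 41 tested rows of the genes themselves, 13 were higher and 3 lower, with a median of 0.25 at a median level of 11.9 CPM, and between 10 and 30 CPM 10.1% of all rows were higher. HRG-AS1 faces KNG1, HRG and FETUB over 722, 447 and 84 of its 11099 exon bases. These genes encode the plasma proteins kininogen, histidine-rich glycoprotein and fetuin-B. The row also faces DNAJB11, a DnaJ family gene, over 496 bases and GPS2P2 over 144. Of the genes it faces, only FETUB is in the hepatocyte list. HRG-AS1 had 591, 615, 609 and 676 CPM in the G3BP1 line. Levels were 258, 295, 329 and 331 CPM in NES and 256, 231, 262 and 256 CPM in NLS. All G3BP1 libraries were above all others, at 1.17 (SE 0.0521, adjusted p = 1.71e-39 by edgeR). ENSG00000267580, facing CEBPA, a hepatocyte transcription factor, had 1799.7, 1771, 1703 and 1913 CPM against 926 to 1142 CPM in the others, at 0.78 (SE 0.0412, adjusted p = 1.36e-33 by edgeR). A second row facing CEBPA was at 0.73, and the rows facing CEBPB and PROX1, other liver transcription factors, at 0.58 and 0.55.

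Apolipoprotein rows did not all move one way. APOA1-AS, facing the main protein of high-density lipoprotein, had 3034, 2971, 3485 and 3733 CPM in the G3BP1 line against 1837 to 2486 CPM in the others, at 0.57 (SE 0.0385, adjusted p = 3.45e-25 by edgeR). ENSG00000280390, facing APOB, was at 0.37. ENSG00000285513, facing APOA4, had 4.80, 0.919, 2.57 and 4.75 CPM against 7.76 to 20.1 CPM, and fell by 2.18 (SE 0.329, adjusted p = 3.28e-08 by edgeR). Of the genes' own rows, AFP, the fetal albumin-like protein, had 61.5, 39.5, 61.7 and 75.3 CPM against 19.4 to 35.6 CPM, and was higher by 1.14 (SE 0.139, adjusted p = 2.06e-11 by edgeR). NR1I3, the constitutive androstane receptor, was at 0.87, complement C3 at 1.51, and the ALB row at 0.60 with 22 to 29 counts in the G3BP1 line. Lower were TFR2 (-1.25), ITIH2 (-0.68) and SLCO1B1 (-0.56).

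Facing and own rows differed for epithelial genes. Of 12 tested rows facing keratin and junction genes, 7 were higher and 0 lower, at a median level of 92.2 CPM where 19% of all rows were higher, but of 17 own rows 1 was higher and 3 lower. Of 10 rows facing mesenchymal and matrix genes, 5 were higher and 1 lower, at a median level of 101 CPM, and between 100 and 300 CPM 34.5% of all rows were higher. Of 12 own rows of that list, 4 were higher and 1 lower. ENSG00000260798, facing E-cadherin (CDH1), had 140.3, 129.5, 128 and 116 CPM in the G3BP1 line against 55.8 to 81.3 CPM in NES and 38.1 to 72.2 CPM in NLS, at 1.13 (SE 0.0977, adjusted p = 1.18e-18 by edgeR). KRT8, a row that faces its partner keratin KRT18, was at 0.50 but its G3BP1 and NES libraries overlapped. KRT8 is itself in the list, so this row counts both among the 7 facing rows and as the 1 own row called higher. Rows facing ITGA6, a laminin receptor subunit, were at 0.79, 0.78 and 0.53, and share that target. On the mesenchymal side, VIM-AS1, facing vimentin, had 3528, 3589.7, 4228 and 4156 CPM against 1954 to 2946 CPM, at 0.64 (SE 0.0387, adjusted p = 1.06e-28 by edgeR). THBS1-AS1 and FSIP1, both facing thrombospondin 1, were at 1.48 and 1.30, and the row facing LOXL2 was lower at -0.83. With total counts, 7 rows facing keratin and junction genes were higher and 1 lower, and 5 facing mesenchymal genes were higher and 2 lower.

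Partners of G3BP1 and other stress granule proteins went both ways. Of 22 tested rows facing genes of this list, 9 were higher and 2 lower, with a median of 0.25 at a median level of 173 CPM. The 9 of 22 are to be read against the 34.5% of all rows between 100 and 300 CPM. PABPC4-AS1, facing the poly(A)-binding protein gene PABPC4, had 1022, 1011, 953 and 1067 CPM against 633 to 735 CPM, at 0.53 (SE 0.0448, adjusted p = 3.47e-19 by edgeR). SETD6, facing CNOT1, the scaffold of the deadenylase complex, was at 0.33. ENSG00000269813, facing ELAVL1 (HuR), was lower at -0.56, and CLK3, facing the decapping factor EDC3, at -0.12. With total counts the split was 7 higher and 4 lower. The own rows had a median level of 12.8 CPM, and between 10 and 30 CPM 10.1% of all rows were higher and 12.9% lower. Of 32 own rows, 7 were higher and 2 lower. Among them DCP2 (1.06), SERBP1 (1.46) and YBX1 (0.70) were higher, while TRIM25 (-1.17) and STAU1 (-0.62) were lower.

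Rows facing RNA sensing and interferon genes were more often called lower than higher. Of 13 tested rows facing these genes, 2 were higher and 5 lower, with a median of -0.30, and of 17 own rows 2 were higher and 4 lower, with a median of -0.11. The median level was 26.0 CPM in the facing rows and 14.8 CPM in the own rows. Between 10 and 30 CPM, 12.9% of all rows were lower and 10.1% higher. Only 1 of the 5 lower facing rows had G3BP1 libraries entirely below the others. Over all tested rows, 464 of the 1752 called lower had 1 sign and no overlap. IL10RB-DT, facing the interferon receptor chain IFNAR2, was higher at 0.66, with 139, 126, 111 and 147 CPM against 65.2 to 102 CPM (SE 0.0893, adjusted p = 8.88e-10 by edgeR). Lower were both rows facing the transcription factor IRF1 (-0.53 and -0.64) and rows facing the dNTP hydrolase SAMHD1 (-0.52), the double-stranded RNA kinase EIF2AK2 (-0.81) and the antiviral GTPase MX1 (-0.81). IFITM3 and HERC6 were lower among own rows, with fitted values of -2.21 and -1.82 at means of 1.29 and 2.02 CPM in the G3BP1 line, where 3 counts are about the same level. With total counts, 1 facing row was higher and 6 lower.

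Oxidative stress, cell cycle, inflammation and ribosomal protein lists were mixed. Of 13 rows facing NRF2, glutathione and metal response genes, 5 were higher and 2 lower at a median level of 79.0 CPM, where 19% of all rows were higher and 17.5% lower, and of 15 own rows 4 were higher and 0 lower. The facing rows included ENSG00000261602, facing the quinone reductase NQO1, with 64.4, 81.8, 86.6 and 86.4 CPM against 26.4 to 45.8 CPM, at 1.12 (SE 0.119, adjusted p = 6.62e-14 by edgeR). Rows facing PRDX1 (0.51) and FTH1 (0.34) were higher and the row facing GSTM1 lower (-0.58). Rows facing NFE2L2, the regulator of this response, went both ways, at 0.50 and -1.09. For the cell cycle, 7 of 22 facing rows were higher and 0 lower, led by LTO1 facing cyclin D1 (CCND1, 0.57) and TSPAN31 facing CDK4 (0.39), and with total counts 3 were higher and 1 lower. The median level was 148 CPM, where 34.5% of all rows were higher, and of 22 own rows 2 were higher and 2 lower. Of 8 rows facing NF-kB and inflammation genes, 2 were higher and 1 lower, at a median level of 103 CPM with the same background, and of 15 own rows 3 were higher and 1 lower. Of 28 rows facing ribosomal protein genes, 13 were higher and 4 lower, with a median of 0.17 at a median level of 49.3 CPM, where 19% of all rows were higher and 17.5% lower. The own rows of ribosomal protein genes had 2 higher and 5 lower of 34. The row facing RPL23A was at 0.60.

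**Figure D4:**
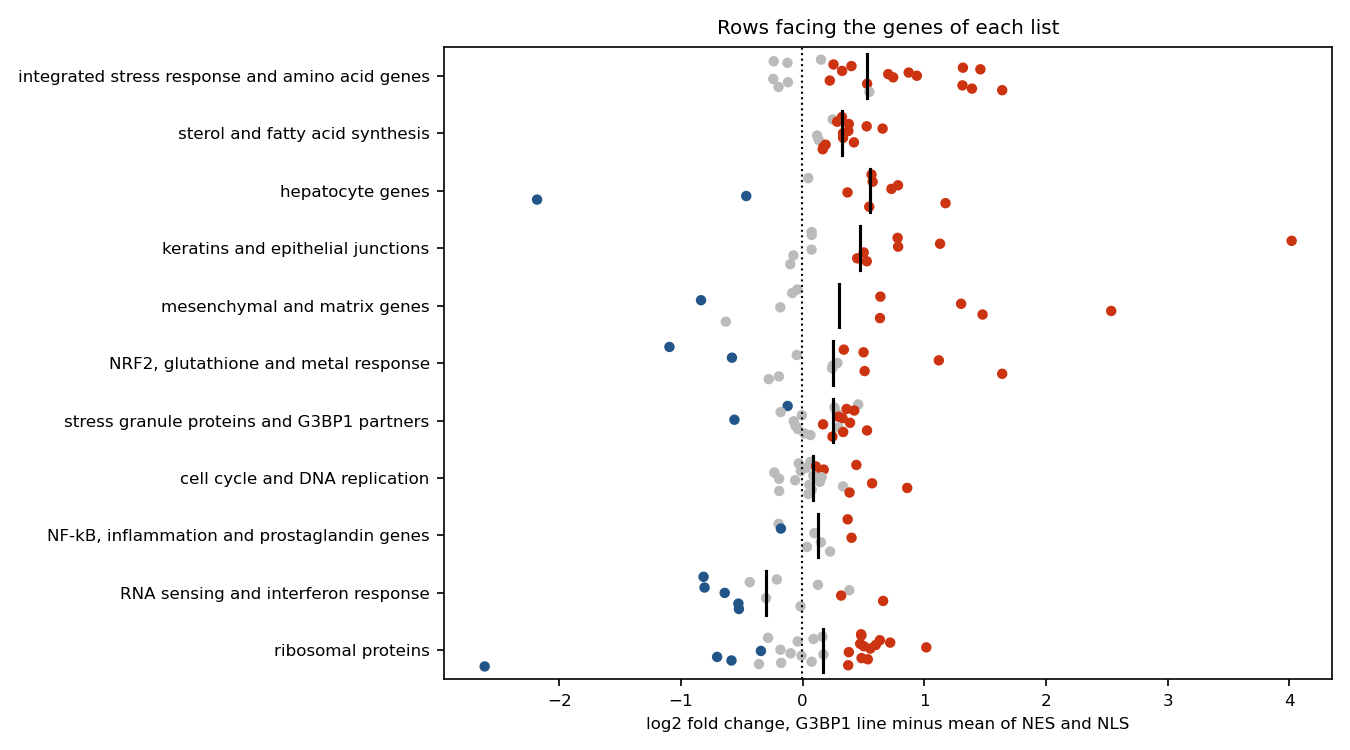
Log2 fold changes of the tested rows facing each gene list are drawn 1 point per row, red for called higher, blue for called lower and grey for not called; the black bar is the list's median and the dotted line the median of all 13108 rows. The amino acid and hepatocyte lists have medians of 0.53 and 0.56, and the RNA sensing list lies at -0.30.

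Own and facing rows of the same gene did not always move together. Across all lists, 19 genes had both kinds of row called, in 23 pairs, of which 12 had the same direction and 11 opposite directions. The facing row was the more abundant in 18 of the 23. MTHFD2, for example, had facing rows at 1.46 and 1.39 and its own row at -0.98, from 34.4 to 17.2 CPM. THBS1 showed the widest split, with facing rows at 1.48 and 1.30 and its own row at -1.84. CDK4 (0.39 facing, -0.91 own) and FDPS (0.42 and -0.95) behaved alike. CEBPA, APOA1, APOB and PROX1 were higher on both.

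Most tested rows of mitochondrial DNA were called higher in the G3BP1 line. The most counted of them, MT-ND6, overlapped between lines in raw counts. It held 9450, 9937, 9648 and 11152 counts in the G3BP1 line and 8125 to 12331 in the others. The ribosomal RNA rows held few counts, 0 to 20 for MT-RNR1 and 7 to 47 for MT-RNR2. Row names on this chromosome need the same care as above, and which strand made the RNA was not tested. Of 34 tested rows of mitochondrial DNA, 23 were higher and 0 lower, with a median of 0.37, and with total counts 20 were higher and 0 lower. All these rows lie on the same small chromosome and may not be independent of each other. Their median level was 228 CPM, and between 100 and 300 CPM 34.5% of all rows were higher and 18.6% lower. The MT-CYB row, named for cytochrome b of complex III, had 1927, 2055, 1965 and 1997 CPM against 1146 to 1588 CPM in NES and 1059 to 1488 CPM in NLS, at 0.65 (SE 0.0458, adjusted p = 3.93e-24 by edgeR). MT-ND5 was at 0.47 and MT-CO1 at 0.50, the second with G3BP1 and NES libraries overlapping. As a share of all counts, these rows made up 2.45% to 3.11% in the G3BP1 line, 2.02% to 2.40% in NES and 2.37% to 2.63% in NLS. The TALAM1 row took 4.06% to 4.83% in the G3BP1 line, 4.96% to 5.71% in NES and 4.64% to 5.39% in NLS. TMM factors were 0.915 to 0.979 in the G3BP1 line, 0.997 to 1.03 in NES and 1.02 to 1.06 in NLS, without overlap between the G3BP1 line and the others. These 3 measures move with the lists above in which more facing rows were called higher than lower, and their part in those results was not tested.

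**Figure D5:**
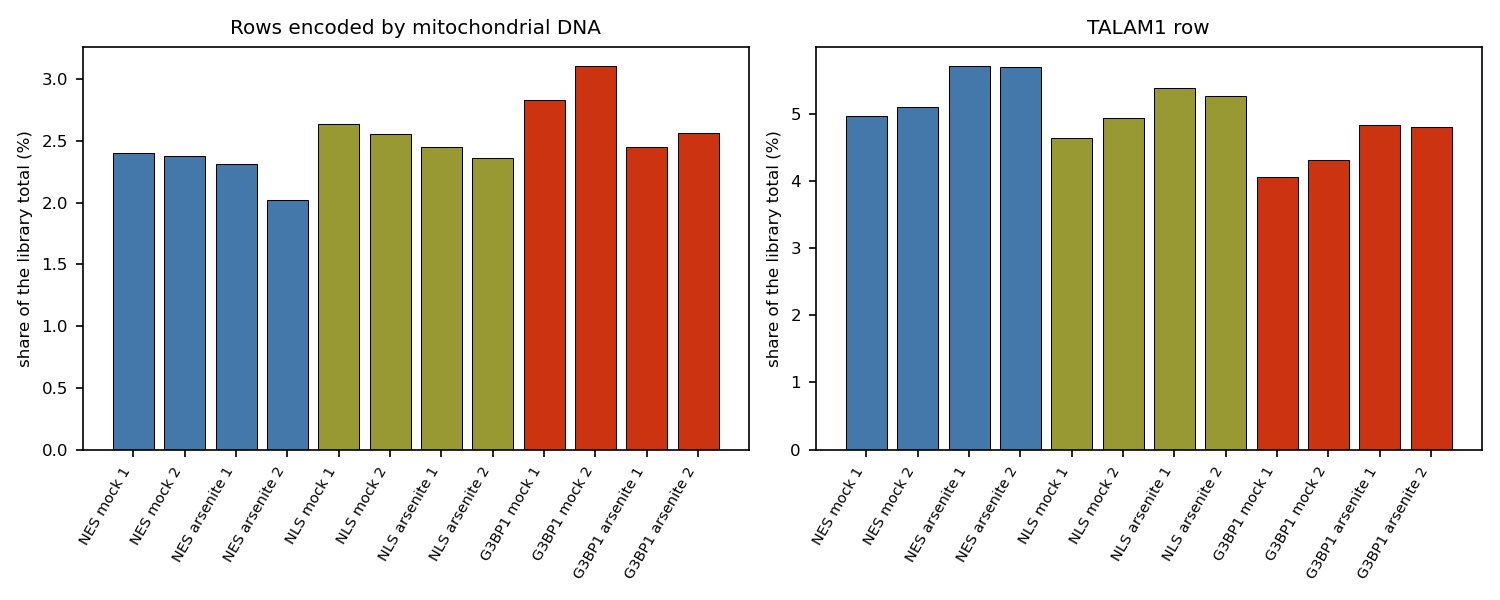
Bars give, for each of the 12 libraries, the share of all counts held by rows encoded by mitochondrial DNA (left) and by the TALAM1 row (right), in percent from 0, with colours for the lines. The G3BP1 libraries hold 2.45% to 3.11% in mitochondrial rows and 4.06% to 4.83% in TALAM1, and both ranges overlap that of NLS.

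Some markers of other cell types were at or near 0 in the rows of the genes themselves and others were not, and on this table RNA may be counted on the facing row. COL1A1, DCN, LUM and PDGFRA of fibroblasts and CDH5 of endothelium had 0 to 1 counts in every library, and VWF and KDR had 0. Among leukocyte genes, MS4A1 and MARCO had 0 counts, PTPRC 0 to 4, CD3E 0 to 3 and CD3D 0 to 4. Other markers had counts in both the G3BP1 and the other libraries, in this order: COL3A1 6 to 59 and 13 to 70, ACTA2 45 to 81 and 45 to 84, STAB1 76 to 110 and 82 to 122, STAB2 49 to 94 and 40 to 69, CSF1R 14 to 76 and 17 to 70, CD68 15 to 24 and 12 to 30, and SOX9 11 to 15 and 6 to 18. Summed over each list's own rows, the G3BP1 and other libraries overlapped for fibroblast genes (61 to 145 against 73 to 165 counts), endothelial genes (148 to 234 against 155 to 228), leukocyte genes (40 to 105 against 55 to 95) and cholangiocyte genes (29 to 34 against 24 to 49). Between 10 and 30 CPM 10.1% of all rows were higher, and between 30 and 100 CPM, which held the endothelial rows' median of 31.0 CPM, 19%. Of tested own rows, 1 of 3 fibroblast, 2 of 4 endothelial, 0 of 2 leukocyte and 0 of 2 cholangiocyte rows were called higher, and none of these was called lower. The 3 called were ACTA2 (0.36), STAB2 (0.57) and PECAM1 (1.32, from 5 to 14 counts in the G3BP1 line and 0 to 8 in the others). The LYZ-facing row was the only leukocyte-list row called, with 458 to 694 counts against 62 to 121. SNAP25, a synaptic vesicle fusion protein, was higher at 1.51, with 124.9, 124, 123 and 136 CPM against 28.4 to 74.4 CPM (SE 0.105, adjusted p = 1.77e-24 by edgeR), while STMN2 had 0 counts and GFAP (-1.01) and SYT1 (-0.39) were lower. CTTNBP2, facing the cholangiocyte gene CFTR, was at 2.02 with 7 to 20 counts in the G3BP1 line, and KRT7 and KRT19 had 0 to 2 counts. In bulk RNA, fewer cells of a type and less RNA per cell cannot be told apart.

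The difference between lines depended on arsenite in few rows. A test of the line difference in arsenite minus that in mock called 20 of 13108 rows (0.153%), 7 upward (0.0534%) and 13 downward (0.0992%), by edgeR, and DESeq2 called 0, with 298 at an unadjusted p under 0.05. The rows with the smallest p, ENSG00000281383, ENSG00000280800 and ENSG00000280614 on chromosome 21, rested on NES arsenite 2 and NLS arsenite 2, which had 559 and 326, 331 and 210, and 219 and 134 counts, while every other library had at most 37. MT-CO1 was higher by 0.76 in mock and by 0.25 in arsenite, a difference of -0.51 (SE 0.0922, adjusted p = 0.00032 by edgeR). ENSG00000176868, facing the stress granule protein gene PRRC2B, had 995, 1029.7, 749 and 822 CPM in the G3BP1 line against 995, 1045, 560.3 and 617 CPM in NES and 837, 801, 431 and 495 CPM in NLS. It was 0.15 higher in mock and 0.59 higher in arsenite, and the difference of 0.44 was called (SE 0.0856, adjusted p = 0.00126 by edgeR). The KRT23-facing row was higher by 4.76 in mock and 3.67 in arsenite. Its difference of -1.09 was not called (SE 0.538, unadjusted p = 0.0436 and adjusted p = 0.579 by edgeR). The LYZ-facing row was higher by 2.94 in mock and 3.05 in arsenite, and the LOX-facing row by 2.51 and 2.57.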

How the data were processed

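RNA of 12 libraries was analysed from the table of raw counts per gene that the authors deposited. The submitters' processing notes name Trim Galore, Subread, featureCounts, edgeR and GRCh38.p13, without versions, and 4 columns of the table matched no sample and were not used. The strand setting is not given in the sources used here. Rows were tested with edgeR 4.0.16 in R 4.3.3 (TMM, filterByExpr with a minimum count of 10, quasi-likelihood F test, Benjamini-Hochberg adjustment over 13108 rows, threshold 0.05). The line comparison was fitted with line and treatment as additive terms (8 residual degrees of freedom), and mock, arsenite and interaction contrasts had 1 mean per group (6 residual degrees of freedom). Groups came from the sample titles. Of the rows, 56982 matched GENCODE 29. Values are mean CPM or CPM per library, and SE is the fold change over the root of F. Depth was 1090308 to 1461067 counts per library, with a floor of 3 counts. Floors cover counting error only.

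Named rows were the 12 largest differences in each direction among called rows with 1 sign and no overlap whose higher side had at least 10 CPM, the 5 smallest p in each direction above 100 CPM, G3BP1 and G3BP2, up to 4 rows per list and the 5 smallest p of the interaction. Other rows named from the lists were chosen after their values were seen. The members and lists were chosen with earlier results of these data known. The fits were tested on simulated data. Alternatives were DESeq2 1.42.0 (test and size factors), total counts, other filters, a replicate block, stricter thresholds, a design with 2 line levels and leaving out each library. Replicates of every group differed beyond sampling noise (chi-square per degree of freedom 1.11 to 1.39). Promoters are from the RefSeq table of GRCh38.p14. Some named rows are not reported here, and counts over lists include them.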

Additional observations from a re-analysis of the deposited data

Results flagged for a closer look

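The line difference depended on treatment, by edgeR's test of that dependence, in 20 rows. Of these, 7 with their values are named here because their difference between the G3BP1 line and the others was not the same after arsenite as after mock. The arsenite minus mock difference was -7.23 for ENSG00000281383, -6.68 for ENSG00000280800 and -6.93 for ENSG00000280614, rows that were high only in NES arsenite 2 and NLS arsenite 2. It was -0.51 for MT-CO1 and -0.34 for MT-CYB, both higher in the G3BP1 line by more in mock than in arsenite. ARHGAP5-AS1, facing ARHGAP5, had -1.39, with 60.5, 71.6, 67.7 and 16.6 CPM in the G3BP1 libraries, of which G3BP1 arsenite 2 was the lowest. ENSG00000176868, facing PRRC2B, had 0.44. DESeq2 called none of these, and their causes were not tested.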

How the results depend on the processing

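DESeq2's test called 1598 rows against NES, 775 for NLS against NES, 1090 in mock, 1104 in arsenite and 0 for the dependence on arsenite. At an adjusted p under 0.01 these were 1645, 843, 1545, 1596 and 13, and at 2-fold or more the pooled comparison had 694 rows and the rows with 1 sign 632. Leaving out each library gave 3187 to 3724 rows in the pooled comparison, 2167 to 2595 against NES, 3616 to 4117 against NLS, 1111 to 1524 for NLS against NES and 2910 to 3396 with 1 sign. It gave 1318 to 2545 in mock, 1524 to 2428 in arsenite and 12 to 23 for the dependence on arsenite. The mock count was 1486 without G3BP1 mock 1 and 1318 without G3BP1 mock 2, the arsenite count 1596 and 1524 without G3BP1 arsenite 1 and 2, and the dependence count 13 without NLS arsenite 2 and 12 without either G3BP1 mock library. Fewer libraries were fitted in each, and the cause was not tested further.

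The pooled log2 fold changes of ENSG00000281383, ENSG00000280800 and ENSG00000280614 (-1.72, -2.12 and -2.29) reversed: to 1.61, 0.86 and 0.83 under DESeq2's test, to 0.43 for the first and 0.00094 for the third without NES arsenite 2, to 0.31 and 0.39 for the first and second without NLS arsenite 2, and to 2.86, 2.65 and 2.72 (the highest values) without both, an alternative chosen after seeing the data. Without G3BP1 mock 1 they were lowest, at -2.46, -2.86 and -2.99. Of 86 named rows that were called, 79 kept call and direction in all of up to 21 alternatives, and 7 lost the call in at least 1, namely these 3, G3BP1, ACTA2, SYT1 and PECAM1. With the replicate number as a block, 3748 rows were called in the pooled comparison, 2538 in mock, 2496 in arsenite and 22 for the dependence on arsenite. Differences between replicates 1 and 2 were correlated above 0.1 in 1 of 15 group pairs (range -0.0801 to 0.341). That pair was NES arsenite and NLS arsenite, at 0.341 over 5070 rows. Such correlations cannot settle whether the numbers pair the libraries. A design with 2 line levels called 2915 rows. Depth limits rows near 3 counts: 4 of the 12 largest downward differences (DYRK3-AS1, PARN, ENSG00000260892 and ENSG00000225963) are given as lower bounds against the mean of the other libraries.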

Other observations

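Some rows were present in 1 of the comparison lines and near 0 elsewhere, and these gave the lowest fitted values in the table. Of 22 called rows below a log2 fold change of -4, all 22 had at most 3 counts in every G3BP1 library, and 19 were also at or under 3 counts in every library of NES or of NLS. CDIN1 had 177 to 218 counts in NLS, 0 to 2 in NES and 0 in the G3BP1 line. SOS2, named for a Ras exchange factor, had 118 to 245 counts in NES, 0 to 4 in NLS and 0 to 1 in the G3BP1 line. F11R, a tight junction protein row, had 138, 121, 51 and 43 counts in NES and at most 4 elsewhere, and PTGS2, the inducible cyclooxygenase row, 37 to 59 in NLS and at most 3 elsewhere. Only 1 called row was above 4 in the other direction, the KRT23-facing row. They were chosen after their values were seen.

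Shares of called rows differed between chromosomes. On chromosome 10, 21.8% of 426 tested rows were higher and 7.51% lower, on chromosome 13 20.9% of 206 and 5.83%, and on chromosome 9 19.2% of 452 and 9.51%. On chromosome 19 12.1% of 735 rows were higher and 20.3% lower, and on chromosome 15 11.2% of 493 and 18.3%. Medians also differed between NLS and NES, for example 0.18 on chromosomes 14 and 15 and -0.25 on chromosome 21.

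Among rows whose line difference depended on arsenite, 3 were chosen after their values were seen. RWDD2A had 18 and 19 counts in G3BP1 mock and 51 to 69 in the other mock libraries, but 96 and 73 in G3BP1 arsenite and 77 to 119 in the others (difference 1.40, SE 0.290, adjusted p = 0.00432 by edgeR). SLFN5, a Schlafen family gene induced by interferon, had 14 and 7 counts in G3BP1 mock against 35 to 38, and 44 and 42 in G3BP1 arsenite against 38 to 50 (difference 1.53, SE 0.377, adjusted p = 0.0464 by edgeR). ENSG00000228748, facing the scaffold gene DLG5, was 0.49 higher in mock and 1.01 higher in arsenite, and had 369, 405, 332 and 397 counts in the G3BP1 line, 383, 354, 216 and 199 in NES and 288, 340, 163 and 213 in NLS (difference 0.52, SE 0.115, adjusted p = 0.0107 by edgeR).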
